A study of Mus musculus with 6 samples.

Results

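The insulin-like growth factor (IGF) system was examined in the stem cells and germ of mouse hair follicles 3 days after treatment with a chemical carcinogen. The genes comprised the ligands Igf1 and Igf2, the receptors Igf1r and Igf2r, and the binding proteins Igfbp2, Igfbp3, Igfbp4, Igfbp5, Igfbp6 and Igfbp7. They were taken by name, as every probe whose RefSeq accession belongs to 1 of these genes, which gave 14 probes for the 10 genes among 21368 named genes on the array. Of the 10 genes, 9 passed the filter on dim signal, which asked for a signal well above background in 3 or more of the 6 arrays of both groups together, and were among the 17834 genes tested. Igf2 did not pass it.

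The groups were 3 samples from male mice whose depilated skin received 7,12-dimethylbenz[a]anthracene (DMBA), a polycyclic hydrocarbon that damages DNA once metabolised, and 3 samples from male mice whose depilated skin received the vehicle, acetone. All mice carried an EGFP reporter under the keratin 15 promoter, and cells bright for EGFP and for surface integrin alpha 6 and negative for surface Sca1 were sorted, so the label covers a gate and not a single cell type. The samples came from different mice, and each was hybridised to 1 single-colour Agilent array. Strain, age and DMBA dose are not given in the sources used here.

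IGF1 and IGF2 are secreted peptides that bind the tyrosine kinase receptor IGF1R, which signals for growth and survival through the insulin receptor substrates, PI3 kinase and AKT. IGF2R binds IGF2, has no kinase, and carries it to lysosomes for breakdown. The binding proteins hold IGFs outside the cell, where they can block or prolong IGF action, and proteases release the ligand from them. In the hair follicle, IGF1 made by the dermal papilla is known as a growth signal to the neighbouring epithelium.

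Promoter windows of 300 bases from RefSeq (build GRCm38.p6) are shown for Igfbp3 and Igf1r, the members with the smallest p among those lower after DMBA, and for Igfbp5, the member with the smallest p among those higher. Capitals mark the core of the xenobiotic response element, GCGTG or its reverse complement CACGC, the letters that the aryl hydrocarbon receptor, the sensor of compounds such as DMBA, is known to bind.
Igfbp3, chr11:7213874-7214173, minus strand: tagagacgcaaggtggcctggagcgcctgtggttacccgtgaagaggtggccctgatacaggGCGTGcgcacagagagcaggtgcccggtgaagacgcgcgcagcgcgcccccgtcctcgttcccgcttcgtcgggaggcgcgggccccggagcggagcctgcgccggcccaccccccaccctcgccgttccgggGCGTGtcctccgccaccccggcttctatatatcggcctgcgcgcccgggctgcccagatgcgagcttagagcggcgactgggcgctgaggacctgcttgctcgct
Igf1r, chr7:67952007-67952306, plus strand: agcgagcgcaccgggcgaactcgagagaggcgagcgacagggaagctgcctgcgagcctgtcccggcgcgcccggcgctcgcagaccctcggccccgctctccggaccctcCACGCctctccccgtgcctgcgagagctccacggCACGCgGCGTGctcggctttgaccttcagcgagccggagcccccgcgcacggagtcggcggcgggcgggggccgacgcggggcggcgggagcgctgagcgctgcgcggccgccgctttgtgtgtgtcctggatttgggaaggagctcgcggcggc
Igfbp5, chr1:72874816-72875115, minus strand: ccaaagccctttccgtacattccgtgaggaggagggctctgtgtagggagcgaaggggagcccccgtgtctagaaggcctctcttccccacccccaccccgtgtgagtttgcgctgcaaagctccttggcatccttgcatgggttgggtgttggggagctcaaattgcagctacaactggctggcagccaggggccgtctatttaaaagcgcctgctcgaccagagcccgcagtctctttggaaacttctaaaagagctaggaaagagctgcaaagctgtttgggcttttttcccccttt

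The core occurred 2 times in the Igfbp3 window and 3 times in the Igf1r window, and these letters were not in the Igfbp5 window. The other tested members did not divide by direction. Of those higher after DMBA, Igfbp2 had 2 and 1 in its windows and Igfbp6 had 0. Of those lower, Igf2r had 2, Igf1 and Igfbp7 had 1 each, and Igfbp4 had 0. Of the 14 windows of the 10 genes, 7 held it on either strand (50%), against 32.4% of all 32851 windows of the same length. The windows also differed in base composition, with a median GC content of 64.0% in the IGF family and 52.7% over all windows. A longer motif, the FOXO element GTAAACA, was in 0 of the 14 windows and in 3.65% of all windows. These matches describe the letters and say nothing of binding in these cells.

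Values below are log2 intensities minus the log2 of the 75th percentile of each array, so 0 is the brightness of a probe at that percentile. Levels are compared between arrays for 1 probe and not between probes. Differences are DMBA minus vehicle on the log2 scale, with the standard error (SE) and p of limma and Benjamini-Hochberg adjustment over all 17834 genes at a threshold of 0.05. The 75th percentile intensity lay between 1355 and 2222 on the DMBA arrays and between 1758 and 2274 on the vehicle arrays. Probes well above background made up 69.3% to 80.9% of all probes on the DMBA arrays and 77.0% to 83.6% on the vehicle arrays. Across genes, Pearson's r between 2 arrays was 0.937 to 0.951 within a group and 0.934 to 0.948 between the groups. All 15 markers of the sorted follicle cells that were looked up, Krt15 and Itga6 among them, were well above background on all 6 arrays. Of these markers, 5 had higher and 10 had lower means after DMBA. Lgr5, a receptor of hair follicle stem cells, had a difference of -0.64 (SE 0.22), and the transcription factor genes Sox9, Tbx1 and Foxc1 had -0.50, -0.42 and -1.19, each of the 4 with all DMBA arrays below all vehicle arrays, a pattern that held for 5.17% of all genes. The adjusted p of these 4 genes was 0.894 to 0.985. Lgr6, another marker of this list, went the other way, with a difference of 0.85 (SE 0.47, adjusted p = 0.988). All its DMBA arrays lay above all vehicle arrays, a pattern that held for 4.88% of all genes. The part of these marker differences in the IGF family values was not tested. Ly6a, the gene of the Sca1 antigen, had a difference of 1.45 (SE 0.45, adjusted p = 0.853), and each DMBA array lay above every vehicle array.

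No gene of the IGF family passed the threshold, and 0 of all genes tested did (0%; smallest adjusted p = 0.438). Among the 9 tested members, 3 were higher after DMBA, where 48.7% of all genes were, and 6 were lower. Their adjusted p ranged from 0.888 to 1.00. At an unadjusted p under 0.05 there was 1 member, Igfbp3, on the lower side, where 5.23% of all genes reached that level, 2.74% with DMBA higher and 2.50% with DMBA lower. Igfbp3 was also the 1 member whose groups did not overlap, with DMBA lower, which held for 5.17% of all genes as given above, while 4.88% had DMBA higher and apart. With so few members these counts do not set the family apart from the rest of the array. The family was not flat either: Igfbp3, Igfbp6, Igfbp5 and Igf1r had differences larger in size than those of 98.9%, 97.2%, 95.6% and 94.6% of all genes, but their residual SDs also exceeded those of 74.9% to 98.0% of genes of similar brightness.

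**Figure D1:**
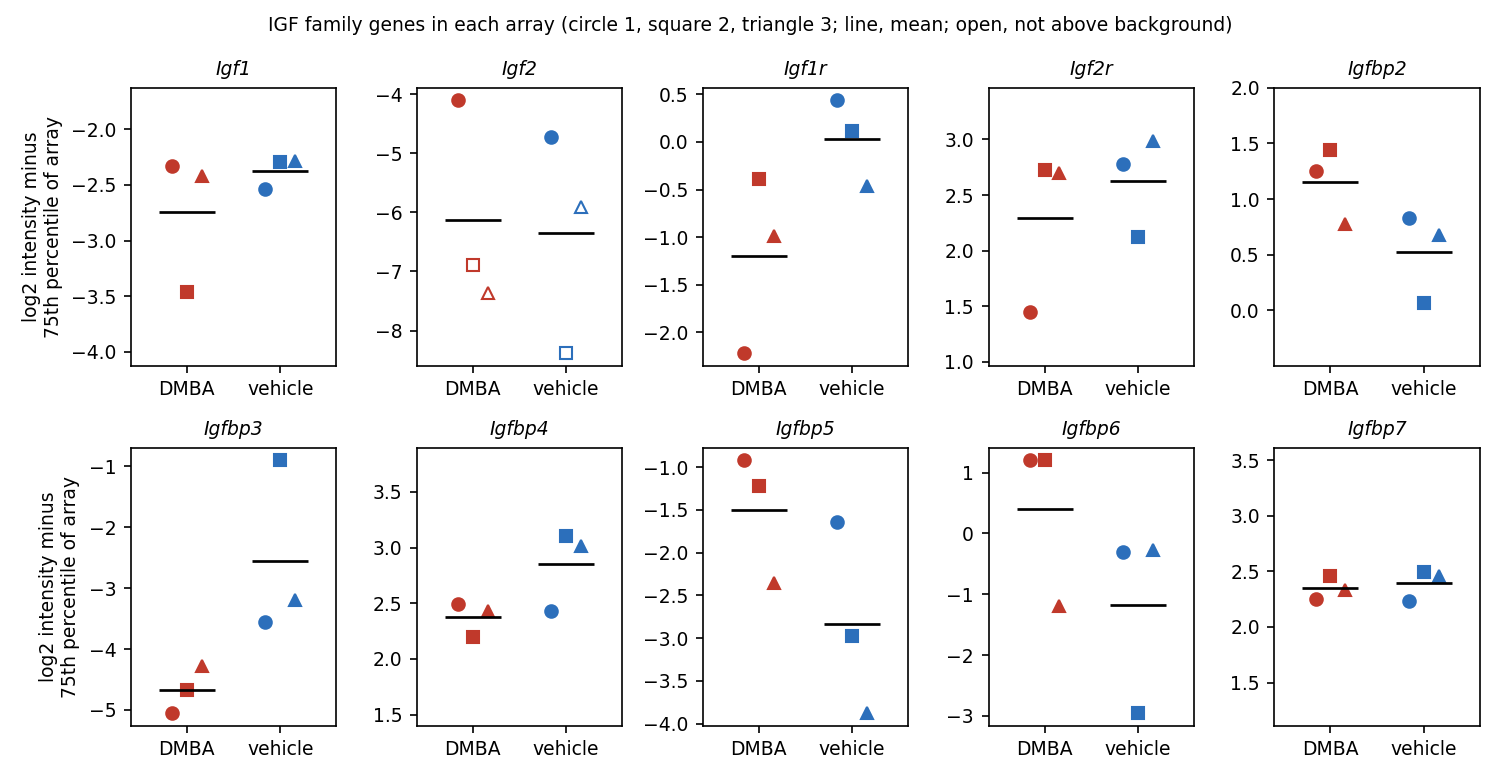
Log2 intensity minus the 75th percentile of the array (vertical axes, separate for each gene) for the 10 IGF family genes on the 3 DMBA and the 3 vehicle arrays. Symbols stand for arrays 1 to 3 of each group, lines for group means, and open symbols for values not well above background; Igfbp3 is the 1 tested gene whose DMBA points all lie below its vehicle points, and Igfbp7 varies least.

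The ligand genes were dim and gave no difference that held across probes. Igf1 had 4 probes. On A_55_P2031636, the probe that represents the gene, it lay at -2.33, -3.46 and -2.42 on DMBA arrays 1 to 3 and at -2.54, -2.29 and -2.28 on vehicle arrays 1 to 3. DMBA 2 was the low array and the other 5 values overlapped. The difference was -0.37 (SE 0.36; 95% interval -1.23 to 0.49; adjusted p = 1.00), and with each array left out it ranged from -0.57 without DMBA 1 to -0.0048 without DMBA 2.

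Of the other Igf1 probes, 2 passed the filter and had the opposite sign. Probe A_55_P2031631 gave 0.53 (SE 0.52), but it was well above background on only 2 DMBA arrays and 1 vehicle array. Probe A_55_P2085984 gave 0.88 (SE 0.36; unadjusted p = 0.0478 and adjusted p = 1.00 in limma over 44916 probes) with the DMBA group above the vehicle group throughout, but its values are means of 2 spots that differed widely. On DMBA 2 the spots read -2.75 and -7.30 and on vehicle 3 they read -5.66 and -7.98, and on each of these arrays only the brighter spot was well above background. Both spots were well above background on vehicle 2 alone. For a probe of 2 spots, 1 such spot was enough for the array to count. For the fourth, A_55_P2085974, no array had a signal well above background. It read -7.06, -7.17 and -7.64 on the DMBA arrays and -8.52, -8.63 and -8.10 on the vehicle arrays, and in a fit without the filter its unadjusted p in limma was 0.00767. The lowest value of any probe was -8.01, -7.32 and -7.79 on the DMBA arrays and -8.62, -8.73 and -8.23 on the vehicle arrays, so the lowest readings were higher on every DMBA array after scaling. With both groups below background no fold is given for this probe.

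**Figure D2:**
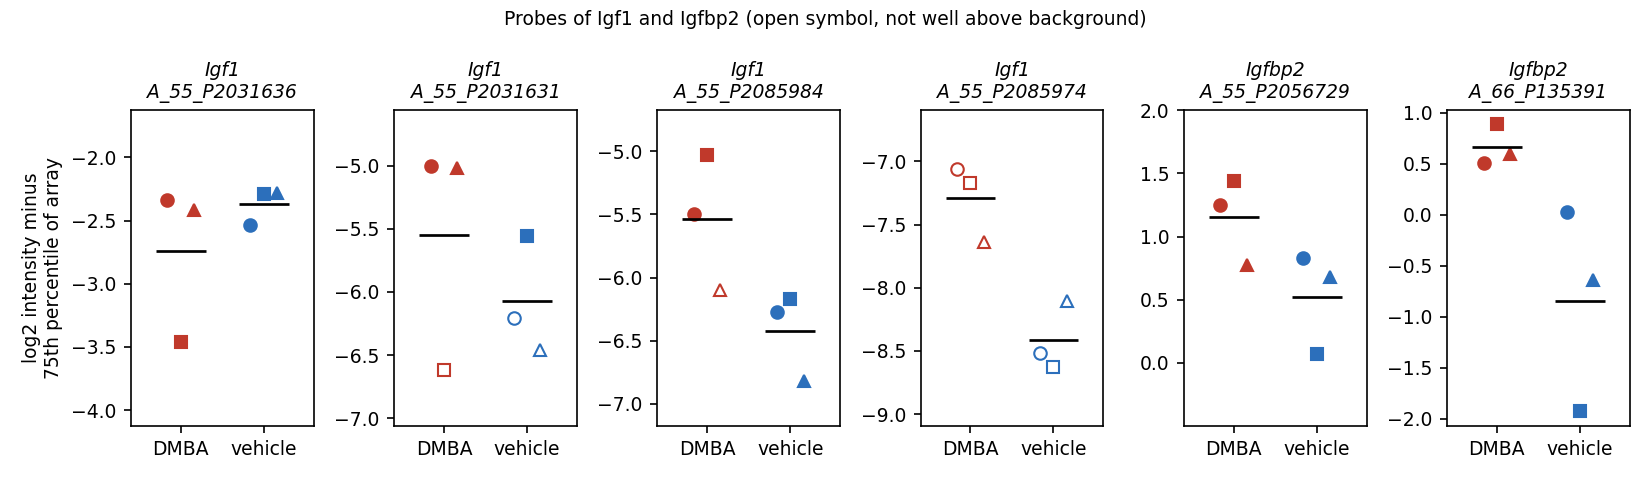
Log2 intensity minus the 75th percentile of the array (vertical axes, separate for each probe) for the 4 probes of Igf1 and the 2 probes of Igfbp2, DMBA arrays at left and vehicle arrays at right in each panel. Symbols stand for arrays 1 to 3, lines for means and open symbols for values not well above background; A_55_P2031636 has a lower mean after DMBA, A_55_P2031631 and A_55_P2085984 have higher means, and A_55_P2085974 was not above background on any array, while both Igfbp2 probes have higher means.

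Igf2, the fetal growth factor whose gene is expressed from the paternal allele, had 1 probe. Its intensity was 79, 19 and 13 units on DMBA arrays 1 to 3 and 86, 6 and 29 units on vehicle arrays 1 to 3. Only DMBA 1 and vehicle 1 were well above background, so 1 sample of each group had a measurable signal and no comparison was made. H19, the noncoding RNA gene next to Igf2 that is expressed from the other allele, was well above background on all arrays and lay at -1.48 ± 0.78 (SD, n = 3) in DMBA and -1.69 ± 1.08 in vehicle.

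Igf1r, the signalling receptor, was lower after DMBA on average but not on every array. It lay at -2.22, -0.39 and -0.99 on DMBA arrays 1 to 3 and at 0.44, 0.11 and -0.46 on vehicle arrays 1 to 3. DMBA 1 was far below the rest, and DMBA 2 overlapped vehicle 3. The difference was -1.23 (SE 0.51), a 2.34-fold lower mean, with a 95% interval from -2.47 to 0.02 and an adjusted p of 0.956. Without DMBA 1 it was -0.72.

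Igf2r, the receptor that removes IGF2, lay at 1.45, 2.73 and 2.70 on DMBA arrays 1 to 3 and at 2.77, 2.12 and 2.98 on vehicle arrays 1 to 3. DMBA 1 was again the lowest array, and the other 5 values overlapped. The difference was -0.34 (SE 0.44; 95% interval -1.40 to 0.73; adjusted p = 1.00), and its sign turned without DMBA 1, where it was 0.085. Without any 1 of the other arrays it lay between -0.59 and -0.16. When the detection share of each array, given above, entered the fit as a covariate, it was -1.02 (unadjusted p = 0.0477 in limma).

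Of the 6 binding proteins, 3 had higher and 3 had lower means in DMBA. Their median difference of 0.29 is only the midpoint between Igfbp7 (-0.04) and Igfbp2 (0.63), and it marks no common direction. Over all genes the median was -0.01. Igfbp3, the main carrier of IGFs in blood and in human cells a known target of p53, had the largest difference of the family. Its intensity was 41, 87 and 109 units on DMBA arrays 1 to 3 and 193, 1143 and 192 units on vehicle arrays 1 to 3. On the scaled log2 axis these were -5.05, -4.67 and -4.28 for DMBA and -3.56, -0.90 and -3.20 for vehicle. Vehicle 2 stood well above the other vehicle arrays, and the highest DMBA array was 0.73 below the lowest vehicle array.

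The Igfbp3 difference was -2.12 (SE 0.71; 95% interval -3.84 to -0.39), a 4.34-fold lower mean in DMBA. It had an unadjusted p of 0.0237 and an adjusted p of 0.888 in limma, and ranked 475 by p among all genes, so it did not pass. Without vehicle 2 the difference was -1.29. The probe was well above background on all 6 arrays, but the DMBA values lay only 0.62, 0.30 and 1.17 log2 units above the lowest signal of any single spot counted as above background on their arrays, against 2.70, 5.49 and 2.70 on the vehicle arrays. The DMBA level is therefore close to the limit of the measurement. With that covariate the difference was -2.13 with an unadjusted p of 0.0854. Because bulk RNA was measured, fewer cells that express a gene and less RNA per cell cannot be told apart, here or below.

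Igfbp1, the next protein-coding gene to Igfbp3 on chromosome 11, encodes a binding protein that the liver is known to secrete. Its probe exceeded background in 1 DMBA and 2 vehicle samples, and no difference is given for it.

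Igfbp2 and Igfbp5 also lie next to each other, on chromosome 1, with 0 protein-coding genes between them, and both had higher means after DMBA. Igfbp2, whose protein can bind integrins as well as IGFs, lay at 1.25, 1.44 and 0.78 on DMBA arrays 1 to 3 and at 0.83, 0.07 and 0.68 on vehicle arrays 1 to 3 on the probe that represents the gene. The DMBA arrays tended to be higher, with DMBA 3 just under vehicle 1. The difference was 0.63 (SE 0.31; 95% interval -0.12 to 1.39; adjusted p = 0.967), and it was 0.40 without vehicle 2. The other probe, A_66_P135391, separated the groups, with 0.51, 0.89 and 0.59 on the DMBA arrays against 0.03, -1.93 and -0.64 on the vehicle arrays, vehicle 2 again the lowest. That probe gave 1.51 (SE 0.51) with an unadjusted p of 0.0251 and an adjusted p of 0.934 over all probes in limma. Of the 12 member probes tested, 3 were at an unadjusted p under 0.05 (4.91% of all probes) and 3 had groups that did not overlap (9.04% of all probes, 4.78% with DMBA higher), 2 with DMBA higher and 1 with DMBA lower. These were the same 3 probes, 1 each of Igf1, Igfbp2 and Igfbp3.

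Igfbp5, a binding protein that attaches to the extracellular matrix, lay at -0.92, -1.23 and -2.36 on DMBA arrays 1 to 3 and at -1.64, -2.97 and -3.88 on vehicle arrays 1 to 3. Its spread was wide in both groups, and DMBA 3 fell below vehicle 1. The difference was 1.33 (SE 0.65; 95% interval -0.25 to 2.91; adjusted p = 0.967), a 2.51-fold higher mean in DMBA. It was 0.81 without vehicle 3 and 1.92 without vehicle 1.

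Igfbp6, which is known to bind IGF2 more tightly than IGF1, was the most variable member. It lay at 1.20, 1.21 and -1.19 on DMBA arrays 1 to 3 and at -0.30, -2.95 and -0.27 on vehicle arrays 1 to 3. One sample in each group, DMBA 3 and vehicle 2, was far below the others, and DMBA 3 lay below vehicle 1 and vehicle 3. The difference was 1.58 (SE 0.97; 95% interval -0.77 to 3.93; adjusted p = 0.994). Its residual SD of 1.46 was larger than that of 98.0% of genes in the middle group when all were split into 3 by brightness, where the median was 0.50. Without vehicle 2 the difference was 0.69 and without DMBA 3 it was 2.38.

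Igfbp4, a binding protein known mainly as an inhibitor of IGF action, lay at 2.49, 2.20 and 2.43 on DMBA arrays 1 to 3 and at 2.43, 3.10 and 3.02 on vehicle arrays 1 to 3. Vehicle 2 and vehicle 3 stood above all DMBA arrays, while vehicle 1 lay among them. The difference was -0.48 (SE 0.27; 95% interval -1.12 to 0.17; adjusted p = 0.988).

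Igfbp7, a secreted relative that binds IGFs only weakly and is made by vessels and many epithelia, was the steadiest member. It averaged 2.35 ± 0.10 (SD, n = 3) in DMBA and 2.39 ± 0.14 in vehicle. The difference was -0.04 (SE 0.21), and its 95% interval, from -0.55 to 0.47, leaves room for a change of about that size either way. Its residual SD of 0.12 was at or above that of only 7.80% of the genes in the brightest of those groups.

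**Figure D3:**
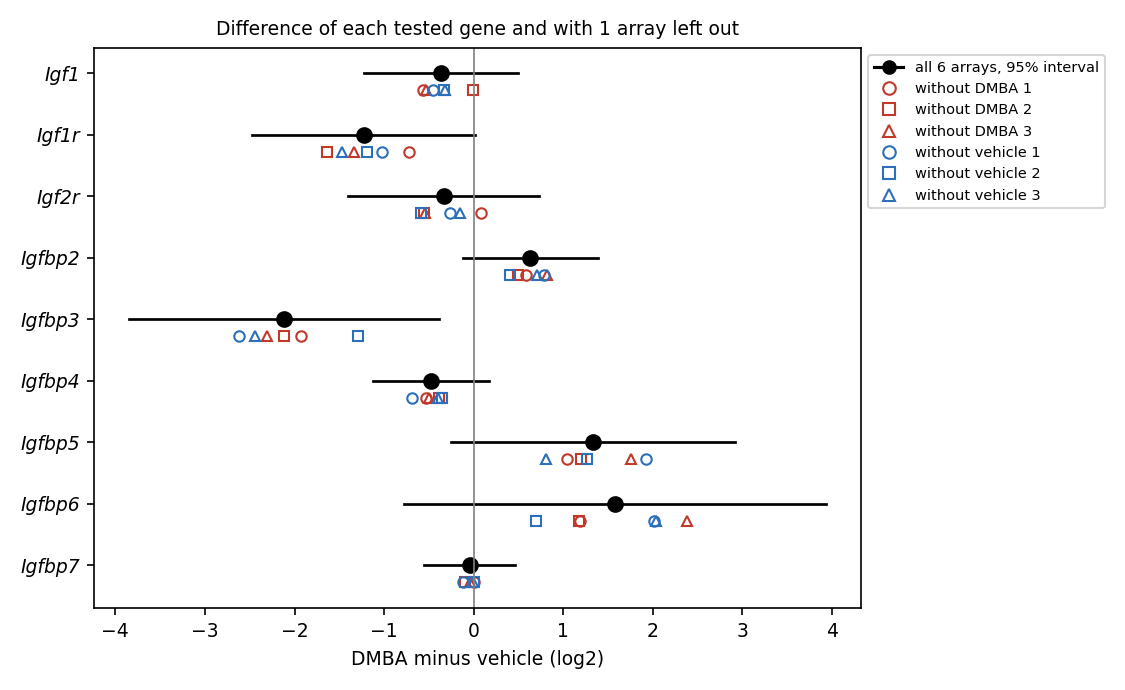
DMBA minus vehicle on the log2 scale (horizontal axis) for the 9 tested IGF family genes, with filled points and bars for the estimate and 95% interval over all 6 arrays and open symbols for the estimate with 1 array left out. The interval of Igfbp3, from -3.84 to -0.39, is the 1 that does not reach 0, and leaving out vehicle 2 brings its estimate to -1.29.

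No array was extreme for the whole family. DMBA 1 was the lowest array for Igf1r, Igf2r and Igfbp3 and the highest for Igfbp5. Vehicle 2 was the highest array for Igfbp3, Igfbp4 and Igfbp7 and the lowest for Igfbp2 and Igfbp6. Over all genes, DMBA 1 was the highest array in 29.4%, the largest such share of the 6 arrays, and the lowest in 15.0%, and vehicle 2 was the highest in 12.3%. Vehicle 1 was on a slide of its own that was scanned apart, so the comparison within a slide is the one without it. It gave -0.45 for Igf1, -1.03 for Igf1r, -0.26 for Igf2r, 0.78 for Igfbp2, -2.62 for Igfbp3, -0.69 for Igfbp4, 1.92 for Igfbp5, 2.02 for Igfbp6 and -0.12 for Igfbp7, each with the same sign as over all arrays.

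The profile of Igfbp3 over the 6 arrays, centred on its mean, was most like those of Lbhd2, Cldn3 and Bend6 among 17833 other genes, with root mean squared differences of 0.30, 0.32 and 0.34 log2 units. Cldn3 encodes a claudin of tight junctions. All 3 genes were well above background on the 3 vehicle arrays and on 0 DMBA arrays, so they passed the filter through the vehicle arrays alone. The DMBA part of each profile is made of readings below background, and the likeness to Igfbp3 rests on the vehicle arrays. Their means in DMBA are therefore only bounded, at least 1.35-fold lower for Lbhd2, 1.35-fold for Cldn3 and 1.48-fold for Bend6. The bounds use the lowest single spots above background on DMBA arrays 1 to 3, at -5.67, -4.97 and -5.45. They rest mainly on vehicle 2. In the same gene order, the 3 genes read -2.96, -3.76 and -3.73 there. On vehicle 1 they read -6.20, -5.85 and -5.67, and on vehicle 3 they read -5.64, -5.20 and -4.98. Their adjusted p, 0.962, 0.834 and 0.790 in that order, comes from the readings below background and not from these bounds. The lower side in DMBA follows from picking genes like Igfbp3.

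The other genes of the system were looked up as lists. Of 20 genes for other ligands, receptors, binding proteins, their proteases and regulators, 18 were tested, of which 10 had higher and 8 lower means after DMBA (median difference 0.20). None passed over all genes (0 of 18). Htra1, a secreted serine protease that cleaves IGF binding proteins and matrix, had the smallest p of this list. It lay at 1.23, 1.40 and 0.73 on DMBA arrays 1 to 3 and at 0.32, -0.74 and -0.04 on vehicle arrays 1 to 3, and all DMBA arrays were above all vehicle arrays. The difference was 1.28 (SE 0.35; adjusted p = 0.757).

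Pappa, the protease best known for cleaving the binding protein encoded by Igfbp4, had a difference of -0.31 (SE 0.24; adjusted p = 1.00), and Stc2, whose product inhibits that protease, -1.07 (SE 0.70; adjusted p = 0.999). Insr, the insulin receptor, which forms hybrids with IGF1R, had a difference of 0.33 (SE 0.33; 0.10 and -0.34 on other probes). Igf2bp2, an RNA-binding protein of Igf2 transcripts, had a difference of -1.11 (SE 0.52; -0.24 on its other probe; adjusted p = 0.967). None of these passed (0 of 4).

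The signalling steps inside the cell showed no common direction. Of 46 genes of receptor signalling, from the receptor substrates to AKT, mTOR and the MAP kinases, 45 were tested and 23 were higher and 22 lower, with a median difference of 0.01. Of 20 genes known as targets of the FOXO factors, which AKT holds inactive, 9 were higher and 11 lower, with a median of -0.06. Bcl2l11, which encodes the death protein BIM, was the 1 gene of these 20 at an unadjusted p under 0.05 in limma. Over all genes 5.23% reached that level, so the count does not set the list apart. The Bcl2l11 difference was 1.66 (SE 0.57; adjusted p = 0.895), with separate groups. Its other probe had the opposite sign, with a difference of -0.70.

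**Figure D4:**
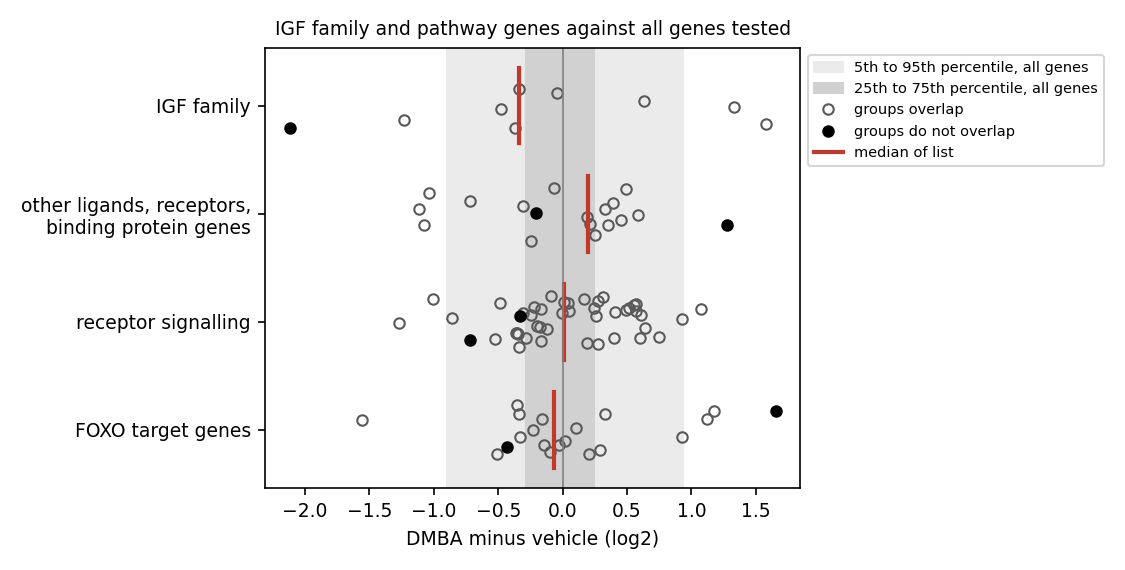
DMBA minus vehicle on the log2 scale (horizontal axis) for each tested gene of 4 lists, filled where the groups do not overlap, with the median of each list as a bar and the spread of all genes tested as grey bands. The 9 IGF family genes lie on both sides of 0, and 3 of them lie above 0.

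Several IGF family genes are known to be expressed by fibroblasts, dermal papilla and vessels, cells that the gate should remove. Of 20 markers of dermal papilla and fibroblasts, 14 were tested and 12 were well above background on all arrays, and their summed linear level, in units of the 75th percentile, ranged from 10.6 to 12.6 on the DMBA arrays and from 9.74 to 14.5 on the vehicle arrays. Pdgfra, Pdgfrb and Sox2 were above background on 0 arrays. Single genes of that list went apart both ways, with differences of 1.51 (SE 0.25) for the proteoglycan gene Dcn, -1.66 (SE 0.45) for the collagen gene Col6a2 and -1.28 (SE 0.36) for Hhip, each with groups that did not overlap and an adjusted p from 0.445 to 0.757. Of 16 markers of endothelium and mural cells, 12 were tested, with a summed level of 9.39 to 12.42 on the DMBA arrays and 8.66 to 10.66 on the vehicle arrays, and Tie1 and Rgs5 were above background on 0 arrays. The summed level of 15 tested leukocyte markers was 92.1 to 147.2 on the DMBA arrays and 95.9 to 119.6 on the vehicle arrays, of which the probe of Itgam made up 89.7% to 93.9%. Without Itgam it was 7.31 to 8.94 on the DMBA arrays and 6.76 to 12.3 on the vehicle arrays. Among single leukocyte genes, the MHC class II genes went apart both ways, with differences of 2.30 (SE 0.45; adjusted p = 0.537) for H2-Eb1 and -0.49 (SE 0.23; adjusted p = 0.967) for H2-Aa. The summed level of 10 melanocyte markers was 4.21 to 6.89 on the DMBA arrays and 3.01 to 4.53 on the vehicle arrays. Mlana made up 5.40% to 61.3% of it. Without Mlana it was 1.63 to 4.32 on the DMBA arrays and 2.70 to 3.56 on the vehicle arrays. Of the 10 markers, 5 had higher and 5 lower means, and 3 were higher at an unadjusted p under 0.05 in limma, which 2.74% of all genes were. The 3 were the pigment cell genes Tyrp1 and Mlana, with differences of 3.35 and 2.72 and overlapping groups, and the endothelin receptor gene Ednrb, with 0.75 and separate groups (-0.27 on its other probe). Their adjusted p was 0.896 to 0.941. Tyrp1 was well above background on 1 of the vehicle arrays. It read -8.22 and -7.19 on vehicle 1 and vehicle 3, below background, so its difference of 3.35 takes in readings that are not measured levels. Single genes also weighed on the other sums, with 6.92% to 36.2% from Col6a2 in the fibroblast list and 40.4% to 50.4% from Tagln in the endothelium list. In each of these lists the summed levels of the groups overlapped, and the part of such cells in the IGF family values was not tested.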

How the data were processed

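Total RNA of sorted cells from 6 mice (3 DMBA, 3 vehicle) was purified and cDNA was labelled with Cy3, per the labels' protocols. The software was Agilent Feature Extraction 10.7.1.1, per the submitters' processing notes. The deposited scanner files hold intensity after that software's background correction, per the file headers, with probe annotation on mouse build mm9. The deposited matrix of the series holds intensity divided by each array's 75th percentile (column 75th percentiles 1.004 to 1.007, column medians 0.154 to 0.172) and was used as an alternative.

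From the scanner files, log2 intensity minus the log2 75th percentile over spots that are not controls was computed in R 4.3.3 with limma 3.58.1. The 3671 control spots and outlier spots were left out (45 probe values missing, none of a member), and spots of a probe were averaged. Probes well above background on at least 3 of 6 arrays were kept (44955 of 55681). Not all spots of a probe had to be well above background, as given for Igf1. Probes were named through RefSeq accessions (GRCm38.p6 annotation), which named 28331 probes, and a gene is represented by its kept probe with the highest mean. Lists are described by counts and medians. The IGF family genes, the lists and the rule for named genes (all members with all probes; list genes at an unadjusted p under 0.05 with separate groups, and any tested gene of the list of other ligands and binding proteins; the sort markers; the 3 profiles most like the member of smallest p) were chosen with earlier results of these data known. A result of the receptor signalling list is not reported here. Files held no mean spot signal, so normexp used median signals. The limma fit was tested on simulated data. The number of arrays limits the precision.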

Additional observations from a re-analysis of the deposited data

How the results depend on the processing

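Over 17 alternative settings the 9 tested IGF family genes gave 153 values, of which 148 kept their sign and 5 did not, and 0 passed the threshold. Part of that count could not turn. The other filters, every probe as a feature, the replicate block and limma's trended robust prior gave the same differences as those above. The mean over kept probes could change only Igf1 and Igfbp2, and slide as a block repeats the fit without vehicle 1. The deposited matrix holds intensity scaled by the same percentile, so its differences were close to the main ones (-2.12 for Igfbp3 in both). The sign turned for Igf1 with the mean over kept probes (0.35) and with the share of probes above background as a covariate (0.0022), for Igf2r without DMBA 1 (from -0.59 to 0.085 with each array left out, and -1.02 with the covariate), and for Igfbp7 without DMBA 1 or vehicle 2 (from -0.12 to 0.0038). That covariate moved the median of all genes to 0.10, from -0.01. Igfbp3 ranged from -2.62 to -1.29, with adjusted p no lower than 0.554. It had an unadjusted p under 0.05 in limma in 14 of the 17 settings, which count that repeated fit separately. The settings that kept the Igfbp3 difference, or nearly so, are not separate support for that count. Igfbp3 missed that level without DMBA 1, without DMBA 2 and with the covariate. Igf1r ranged from -1.76 to -0.72, Igfbp5 from 0.81 to 2.04 and Igfbp6 from 0.69 to 2.38.

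The number of members at an unadjusted p under 0.05, 1 over all arrays, was 2 with normexp, with a filter on all 3 arrays of a group, with the mean over kept probes and with limma's trended robust prior, where 5.34% to 5.81% of all genes reached that level. It was 3 with slide as a block, which is the same fit as without vehicle 1 (4.98% of all genes), and 3 with the covariate (7.38%). It was 3 probes with every probe as a feature (4.91% of probes), and from 0 to 3 with each array left out (4.97% to 6.88%). Genes past the threshold numbered 0 to 1 higher and 0 lower with each array left out; the 1 gene, Apln, passed without vehicle 2. With the replicate number as a block the number of members was 2 (Igfbp3 and Igfbp5), where 5.48% of all genes reached that level. Same-numbered arrays had deviations from their group means that correlated with r of 0.02, -0.02 and 0.06, so the numbers were not taken as pairs. The causes of these shifts were not tested.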
